A study of Bos taurus with 42 samples.

Results

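The troponin genes were followed in the cerebrum, the liver and the left hind limb muscle of 14 bovine fetuses at day 50 of gestation. They were taken as the genes of the counts data whose Ensembl identifiers are paired with a troponin C, I or T symbol (*TNNC*, *TNNI* or *TNNT* and a digit) in the tables that accompany the study. This gave 7 of the 22,664 genes counted, of which 5,128 had a symbol. The slow forms were *TNNC1* (ENSBTAG00000045757), *TNNI1* (ENSBTAG00000047231) and *TNNT1* (ENSBTAG00000006419). The fast forms were *TNNC2* (ENSBTAG00000046725), *TNNI2* (ENSBTAG00000010880) and *TNNT3* (ENSBTAG00000022158). The cardiac form was *TNNT2* (ENSBTAG00000045789), cardiac troponin T, while *TNNI3*, cardiac troponin I, is not analysed here.

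The dams were Angus-cross heifers inseminated with semen of a single sire, and all fetuses were collected at the same gestational age. Control dams (CON, *n* = 7) were fed 100% of the energy requirement for their target gain, and restricted dams (RES, *n* = 7) received 60% of the CON intake. There was 1 female among the CON fetuses and there were 2 among the RES fetuses. Each fetus gave 1 RNA-Seq library per tissue, so that there were 42 libraries, and the replicate is the fetus. The libraries held 5,384,018 to 7,592,149 counts in muscle, 6,658,218 to 12,741,299 in the liver and 4,145,093 to 7,576,159 in the cerebrum. Marker genes were present in the labelled tissues. Neuron markers summed to at least 2,666 CPM in each cerebrum, hepatocyte markers to at least 33,982 in each liver and muscle fiber markers to at least 1,375 in each muscle. Fetuses are named below by their diet and the animal number of the labels. Levels are CPM (counts divided by the size of the library) with TMM factors (library scaling factors fitted over all genes) unless stated otherwise. They are compared between libraries and not between genes, since they were not divided by transcript length.

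Troponin is the calcium switch of the thin filament of striated muscle. Its C subunit binds calcium, its I subunit holds back the interaction of actin and myosin, and its T subunit ties the complex to tropomyosin. Slow and fast fibers use different genes for each subunit, the slow form of troponin C is also that of the heart, and developing skeletal muscle expresses the cardiac form of troponin T beside the skeletal forms.

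All 7 troponin genes were most abundant in muscle. In every case each of the 14 muscle libraries was above each of the 28 libraries of the other tissues, a separation that 5.32% of the 15,972 genes tested over the 3 tissues had. *TNNC1*, the slow and cardiac calcium binding subunit, had 103 to 859 CPM in muscle, with a median of 265 in CON and 253 in RES. In the cerebrum the same gene ranged from 0 to 5.77 CPM in CON and from 0.181 to 31.3 in RES. *TNNC2*, the fast calcium binding subunit, had 65.4 to 799 CPM in muscle. Of the inhibitory subunits, *TNNI1* had 23.5 to 282 CPM in muscle and *TNNI2* 20.9 to 276. Of the tropomyosin binding subunits, *TNNT1* had 61.2 to 507 CPM, *TNNT3* 73.3 to 778 and the cardiac *TNNT2* 13.9 to 168. Muscle was thus the tissue where slow, fast and cardiac forms were all present in each library.

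**Figure D1:**
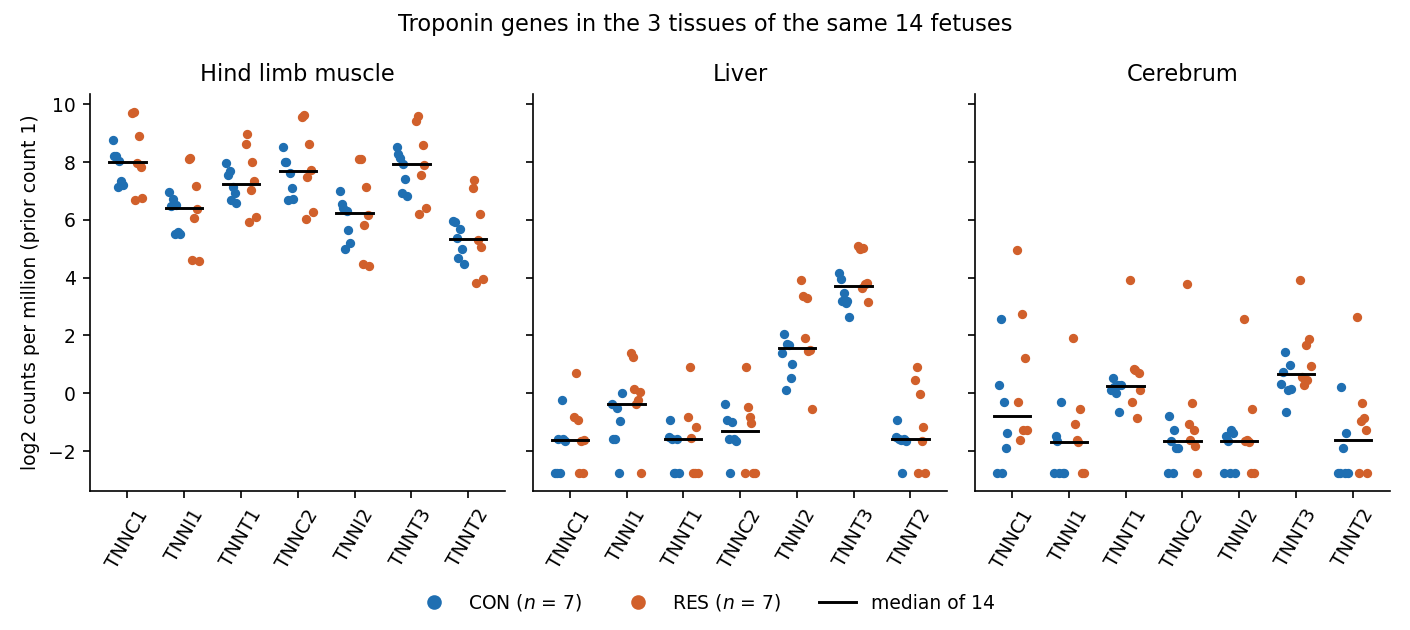
Troponin levels (log2 CPM with a prior count of 1) in hind limb muscle, liver and cerebrum, with a point for each fetus, colored by diet, and a line for the median of 14. For all 7 genes the muscle points lie above all liver and cerebrum points. In the cerebrum the highest point of each gene is RES fetus 1.

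The 3 tissues were compared with edgeR's quasi-likelihood test over the 42 libraries, with sex and diet in the model. All 7 troponins were higher in muscle than in the cerebrum, where 32.2% of all genes tested were called higher in muscle. The smallest of these differences was that of *TNNT2*, 6.51 on the log2 scale, and the greatest was that of *TNNC2*, 8.12, with adjusted *p* between 1.92e-18 and 1.29e-13. Without the libraries of RES fetus 1 the differences were 7.31 (*TNNT3*) to 10.17 (*TNNC2*), with *TNNT2* at 7.67 and *TNNI2* at 8.99. *TNNI1*, *TNNC2*, *TNNI2* and *TNNT2* had medians of 1 to 1.5 counts in the cerebrum, too few to be tested within that tissue. *TNNC1*, *TNNI1*, *TNNC2* and *TNNT2* were kept over the 42 libraries through muscle, where they were high. Their calls against the cerebrum are therefore not independent evidence. The differences of these genes and of *TNNI2* rest on few cerebrum counts. All 7 were also higher in muscle than in the liver, against 45.5% of all genes, with adjusted *p* from 2.19e-20 to 2.58e-12. Here the slow *TNNC1* and *TNNT1* and the fast *TNNC2* differed by 10.30, 9.65 and 9.68 log2 units. *TNNI1* and *TNNT2* differed by 7.23 and 7.32. *TNNC1*, *TNNT1*, *TNNC2*, *TNNI1* and *TNNT2* had medians of 1 to 3 counts in the liver and did not pass the filter there. The same limit thus holds for their calls and differences against the liver. The fast *TNNI2* and *TNNT3* had the smallest differences between muscle and liver among the troponins, 4.66 and 4.25.

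Between the liver and the cerebrum the troponins divided by gene. *TNNI2* and *TNNT3* were higher in the liver, by 2.81 and 2.62 log2 units, and *TNNC1* and *TNNT1* were lower there, with log2 differences of -3.45 and -2.99. These 4 of 7 passed an adjusted *p* of 0.05 in edgeR's test, where 83.6% of all genes did. *TNNI1* (0.66, adjusted *p* = 0.339), *TNNC2* (-1.56, adjusted *p* = 0.065) and *TNNT2* (-0.81, adjusted *p* = 0.275) did not pass it. These values moved when a fetus was left out. Without the 3 libraries of RES fetus 1, taken out together, *TNNI1* was higher in the liver by 1.75 (adjusted *p* = 0.0199, and 0.0199 to 0.572 over all alternatives), and the estimates of *TNNC2* and *TNNT2* had the other sign (0.82 and 0.43). Those called moved too, *TNNI2* to 4.36, *TNNT3* to 3.13, *TNNC1* to -2.29 and *TNNT1* to -2.11, each still called. With the animal as a block *TNNI1* also passed the test (1.18). *TNNC2* passed it without CON fetus 2 (-1.75) or RES fetus 6 (-2.01). With library totals alone in place of TMM factors *TNNC2* (-2.52) and *TNNT2* (-1.89) passed it, and *TNNI1* had the other sign (-0.42), while *TNNI2* and *TNNT3* were at 1.68 and 1.51. This scaling moved the median of all genes by -1.03, about as much as it moved these 5 estimates.

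In muscle the levels varied widely within a diet, and mostly within RES. *TNNC1* had a lowest, median and highest level of 142, 265 and 433 CPM in CON, and of 103, 253 and 859 in RES. *TNNI1* had 45.0, 88.4 and 125 CPM in CON, and 23.5, 82.4 and 282 in RES. *TNNT1* had 95.1, 142 and 249 CPM in CON, and 61.2, 162 and 507 in RES. For each of these slow forms the RES values began below the lowest CON value and ended above the highest one. The same held for the fast forms. *TNNC2* had 102, 199 and 368 CPM in CON, and 65.4, 213 and 799 in RES. *TNNI2* had 31.4, 79.9 and 129 CPM in CON, and 20.9, 72.1 and 276 in RES. *TNNT3*, the fast tropomyosin binding subunit, had 114, 247 and 364 CPM in CON, and 73.3, 241 and 778 in RES. The CON and RES medians of the fast forms thus lay close together, while the extremes did not. Cardiac *TNNT2* had 21.998, 41.8 and 62.6 CPM in CON, and 13.9, 39.3 and 168 in RES, and so spread as the skeletal forms did.

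**Figure D2:**
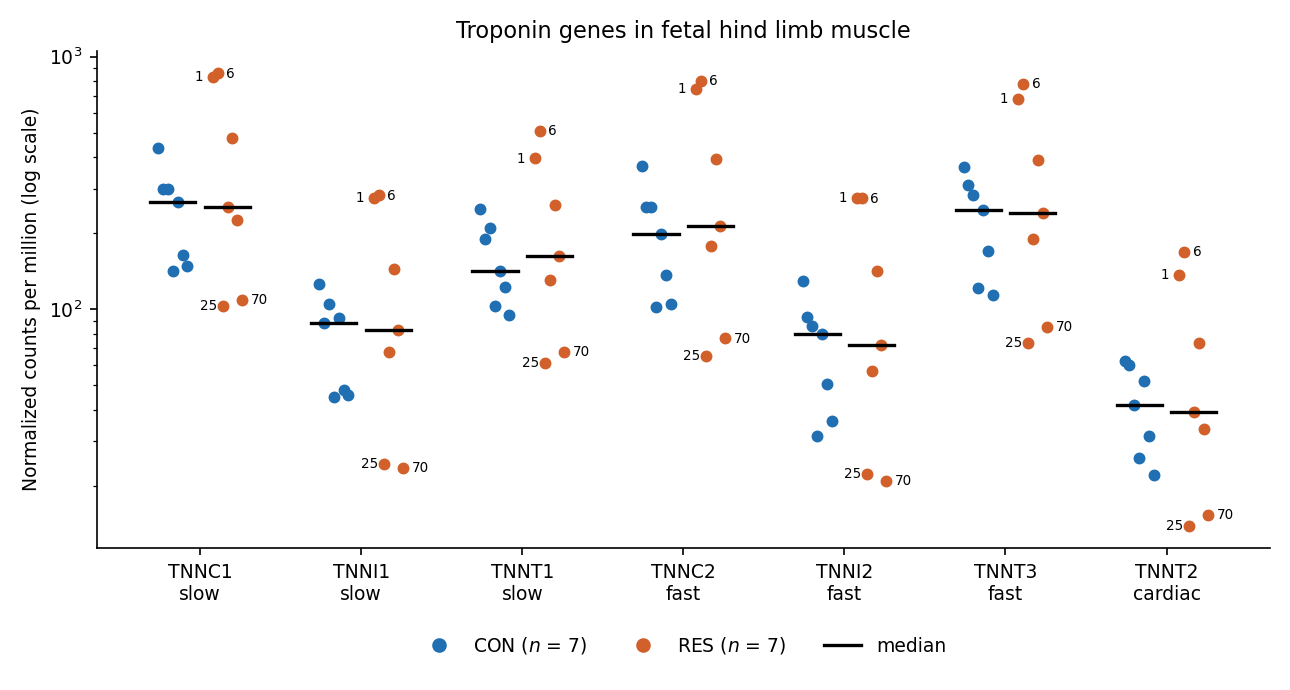
Normalized CPM (log axis) of the 7 troponin genes in hind limb muscle, with a point for each fetus and a line for the median of each diet (*n* = 7 each). RES fetuses 1, 6, 25 and 70 are marked by their numbers. In all 7 genes fetuses 1 and 6 are the highest and fetuses 25 and 70 the lowest of the 14.

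The order of the fetuses was much the same for every gene. Over the 7 troponins RES fetus 6 had a mean rank of 1.14 from the highest, RES fetus 1 of 1.86 and RES fetus 52 of 3. At the other end RES fetuses 70 and 25 had mean ranks of 13.3 and 13.7. CON fetuses lay between these, from 4 for CON fetus 2 to 11.6 for CON fetus 54. RES therefore held both the 3 highest and the 2 lowest fetuses. The highest level was 8.28 (*TNNT1*) to 13.2 (*TNNI2*) times the lowest among the 14 libraries. Together the 7 genes took 0.0467% of the counts in the muscle library of RES fetus 25 and 0.436% in that of RES fetus 6. In whole muscle samples a lower number of muscle fiber cells and less RNA per fiber cannot be told apart.

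The question of the diet comparison was whether restriction of the dam changed the levels of these genes. In muscle the mean was above that of CON in RES for all 7 troponins, but none passed an adjusted *p* of 0.05 in edgeR's test with sex as a covariate, where 0% of the 14,947 genes did (0 genes, with 1,481 at an unadjusted *p* under 0.05 and 13 called by DESeq2). All 7 troponins are on the study's list of genes that differed between the diets in muscle, a list chosen on these same fetuses, so that their direction here is not independent evidence. *TNNC2* had the greatest estimate, 0.77 ± 0.50 on the log2 scale (SE, adjusted *p* = 0.606 in edgeR's test), with means of 202 ± 97.0 CPM in CON and 353 ± 307 in RES (SD, *n* = 7 each). *TNNT1* had the smallest, 0.52 ± 0.40 (SE, adjusted *p* = 0.658), with 159 ± 58.4 and 226 ± 170 CPM. The slow *TNNC1* and *TNNI1* were both estimated at 0.66, the fast *TNNI2* and *TNNT3* at 0.71 and 0.57, and the cardiac *TNNT2* at 0.63. The median over the 7 was 0.66, and over all genes tested it was -0.01. CON and RES values overlapped for all 7 genes, and 0.1% of all genes did not overlap. The estimates were lowest without RES fetus 6, with *TNNC1* at 0.42 and *TNNT1* at 0.22. They were highest without fetus 68, the CON female, with *TNNC1* at 1.02, *TNNI1* at 1.05 and *TNNT2* at 1.08. With her left out all females were RES, so that with sex in the model the diet estimate came from the male fetuses only.

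The spread between fetuses differed more between the diets than the means did. The SD of log2 CPM of the troponins was 0.516 to 0.744 in CON and 1.17 to 1.54 in RES. The ratio of RES to CON was 2.04 to 2.40 over the 7 genes, with a median of 2.08, and the median ratio over all 14,947 genes was 1.22. Among all genes 64.4% had a larger SD in RES. The SD of each troponin within RES was above that of 96.9% to 98.9% of all genes, and within CON it was above that of 84.1% to 92.5%. Other muscle genes spread in the same way, with SDs in CON and RES of 0.482 and 1.07 for *MYH3*, 0.612 and 1.33 for the light chain *MYLPF*, and 0.825 and 1.98 for *CKM*, muscle creatine kinase. These 3 SDs are from a separate calculation of log2 CPM, in which those of the troponins were 0.531 to 0.756 in CON and 1.18 to 1.55 in RES. These values describe the libraries, and the difference of the spreads was not tested.

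Slow and fast forms were then set against each other within each library, since this ratio hardly depends on the scaling of the library. The log2 ratio of *TNNC2* to *TNNC1* was -0.34 ± 0.12 in CON and -0.33 ± 0.23 in RES (SD, *n* = 7 each). That of *TNNI2* to *TNNI1* was -0.17 ± 0.23 in CON and -0.12 ± 0.09 in RES. That of *TNNT3* to *TNNT1* was 0.49 ± 0.21 in CON and 0.53 ± 0.18 in RES. The diets differed by 0.01, 0.05 and 0.03 log2 units, less than the SD of either diet, and their ranges overlapped for all 3 subunits. The levels of a slow and a fast form spanned 8.28-fold or more between fetuses, while the ratios kept to narrow ranges, from -0.66 to -0.08 for troponin C and from 0.23 to 0.80 for troponin T.

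**Figure D3:**
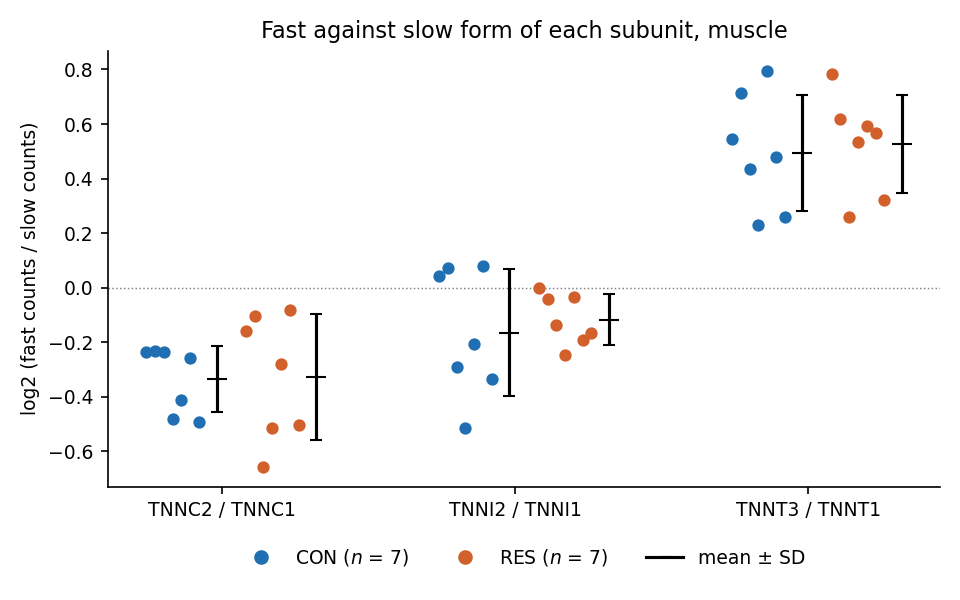
The log2 ratio of the fast to the slow form of each troponin subunit in hind limb muscle, with a point for each of the 14 fetuses and mean ± SD bars. The ranges of CON and RES overlap for each subunit. The lowest and highest ratios are from RES for troponin C and from CON for troponin I and troponin T.

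The 7 troponins were closely correlated over the 14 muscle libraries. Pearson's *r* of the log2 CPM was 0.973 to 0.995 in the 21 pairs (median 0.986) and Spearman's rho was 0.969 to 0.991. Permutation tests (two-sided, 100,000 resamples) gave *p* of 1e-05 to 2e-05, adjusted 1.05e-05 to 2e-05 over the 21 pairs, where 1e-05 is the smallest that the resamples can give. Without the 2 fetuses farthest from the median *r* was 0.946 to 0.993. Within CON it was 0.873 to 0.992 and within RES 0.989 to 0.999. The 6 pairs with the cardiac *TNNT2* had *r* of 0.973 to 0.984, and the 9 pairs of a slow and a fast form 0.983 to 0.994. Within CON these were 0.873 to 0.964 and 0.950 to 0.992. The difference between the kinds of pair was not tested.

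Among the genes of muscle with a symbol, those whose pattern was most like the troponins' were found by the median *r* with the 7. The first were *TPM2* (0.993), a tropomyosin of the thin filament, and *MYLPF*, *MYL6B* and *MYL4* (0.992 each), light chains of myosin. They were followed by *DES* (0.989), the intermediate filament desmin, *SMPX* (0.987), a small muscle protein, and *CSRP3* (0.987), a protein of the Z-disc. The next were *SRPK3* (0.987), a protein kinase of muscle, *MYL1* (0.987), another myosin light chain, and *HJV* (0.986), hemojuvelin. Genes with a median *r* of at least 0.9 numbered 304 of 14,940 outside the troponins, and 24 genes were at or under -0.9. By single gene, *TNNC1* and the fast *TNNC2* were most alike to *MYL6B* (0.995) and *TPM2* (0.998), and *TNNT2* was most alike to *MYL6B* (0.986). *TNNT3* was most alike to *MYL1* (0.994) and *TNNI1* to *SMPX* (0.994). These are descriptions over 14 libraries that share depth and scaling.

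The rest of the sarcomere and its partners was described by lists of genes, given as the number paired with a symbol in the study's tables of the number listed. The others are not analysed here. In the diet comparison of muscle none of them was called, as for all genes. Of the thin filament list (7 of 11) 6 genes were above 0 with a median of 0.33 log2 units, led by *TPM2* at 0.56 and skeletal actin *ACTA1* at 0.54. All 11 of the thick filament list (11 of 17) were above 0, with a median of 0.55, and the atrial and slow light chains *MYL7* and *MYL3* were at 0.99 and 0.80. Of the genes for calcium release and uptake (9 of 16) 8 were above 0 with a median of 0.46, among them *CASQ1*, calsequestrin of the sarcoplasmic reticulum, at 0.49. The myogenic regulators (9 of 13) had a median of 0.14 with 7 above 0, and myogenin, *MYOG*, was at 0.57. The troponins' median of 0.66 lay above the medians of these 4 lists. Against the cerebrum and against the liver, 11 of 11 thick filament genes, 9 of 9 calcium genes, 6 of 7 thin filament genes and 8 of 9 myogenic regulators were called higher in muscle, beside 32.2% and 45.5% of all genes. Those not called had estimates above 0 as well, *TMOD4* in both comparisons (0.36 and 0.15), *PAX7* against the cerebrum (0.25) and *MYMX* against the liver (0.24).

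Markers of cell types varied with the troponins in muscle, some being high in the fetuses with high troponin levels and some low in them. The sum of 13 muscle fiber markers other than troponins, whose most abundant gene was *MYH3* (embryonic myosin heavy chain) in all 14 libraries, was 11,232 CPM in RES fetus 6 and 10,355 in RES fetus 1. It was 1,375 in RES fetus 25 and 1,573 in RES fetus 70, and 2,243 to 5,806 in CON. Per unit of this sum the troponins were nearly level, at 0.208 to 0.298 in CON and 0.216 to 0.326 in RES. All 13 fiber markers and all 5 smooth muscle genes had diet estimates above 0 (medians 0.48 and 0.46), and all 6 neuron markers tested were below 0 (median -0.91). The smooth muscle list held *DES*, with a median of 389 CPM in muscle and a median *r* of 0.989 with the troponins. In muscle this list can therefore not be read as smooth muscle alone. The neuron sum was 1,703 CPM in CON fetus 73, where *STMN2* was the most abundant at 896, 428 in RES fetus 1 and 60.8 to 186 in the other 12. The median of the neuron sum was 141 CPM in CON and 155 in RES. The part of CON fetus 73 in the estimates below 0 was not tested. Connective tissue markers (2 of 8 listed, with *TWIST1* the most abundant in all 14 libraries) summed to 47.3 and 52.4 CPM in RES fetuses 1 and 6, where the troponins were highest, and to 211 and 215 in RES fetuses 25 and 70, where they were lowest. Cartilage markers (4 of 6) summed to 38.6 and 54.3 CPM in the former and to 222 and 107 in the latter. In CON they summed to 78.8 to 109 CPM, a range that held the value of RES fetus 70. Of the heart list (4 of 11 paired with a symbol), *GATA4* was at 0 in 12 of 14 muscle libraries, while *TBX5*, *MYL7* and *HAND2* were at 0 in none (medians 9.79, 8.11 and 21.4 CPM). The list summed to 27.4 to 45.99 CPM in CON and 39.7 to 54.9 in RES, with *MYL7* the most abundant in RES fetuses 1, 6 and 52 and CON fetus 2. Its diet estimates were 0.99 for *MYL7*, -0.24 for *TBX5* and -0.31 for *HAND2*, none of them called. The part of these markers in the troponin values was not tested.

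In the liver only *TNNI2* and *TNNT3* passed the filter on low counts. *TNNT3* had a lowest, median and highest level of 6.12, 9.02 and 17.9 CPM in CON, and of 8.71, 14.0 and 34.4 in RES, from 36 to 153 counts per library. *TNNI2* had 0.931, 2.49 and 4.004 CPM in CON, and 0.533, 3.64 and 14.9 in RES, from 3 to 46 counts. RES fetuses 1, 6 and 33 were the highest for *TNNT3*, at 34.4, 31.7 and 32.4 CPM, and the groups overlapped for both genes. The estimate of RES against CON was 0.97 ± 0.29 log2 units for *TNNT3* (SE, adjusted *p* = 0.184) and 1.27 ± 0.52 for *TNNI2* (SE, adjusted *p* = 0.187) in edgeR's test. Neither passed the threshold, and 0% of the 13,527 genes did (0 genes, with 3,260 at an unadjusted *p* under 0.05 and 86 called by DESeq2). The other 5 troponins had a median of 3 counts or fewer over the 14 liver libraries. *TNNI1* was highest among these at 9 counts and was at 0 in 2 libraries, and *TNNC1* and *TNNT1* were at 0 in 5 and 6. The slow and cardiac forms and *TNNC2* were thus at the limit of the depth in the liver. *TNNT3* is on the study's list for the liver too, chosen on these fetuses.

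These values depended on the scaling of the liver libraries. The TMM factors of the liver were 0.189 to 0.816, and those of the same RES fetuses 1, 6 and 33 were 0.189, 0.433 and 0.466. That of CON fetus 2, which had the highest CON level of *TNNT3*, was 0.418. In CPM of the library totals alone *TNNT3* was 4.79 to 9.33 in CON and 6.51 to 15.1 in RES, with RES fetus 1 the lowest RES value and RES fetuses 33 and 6 the highest ones. The estimate was then 0.53 for *TNNT3* (adjusted *p* = 0.390), and *TNNI2* was estimated at 0.71 (adjusted *p* = 0.411). This other scaling moved the median of all genes by -0.34 log2 units.

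**Figure D4:**
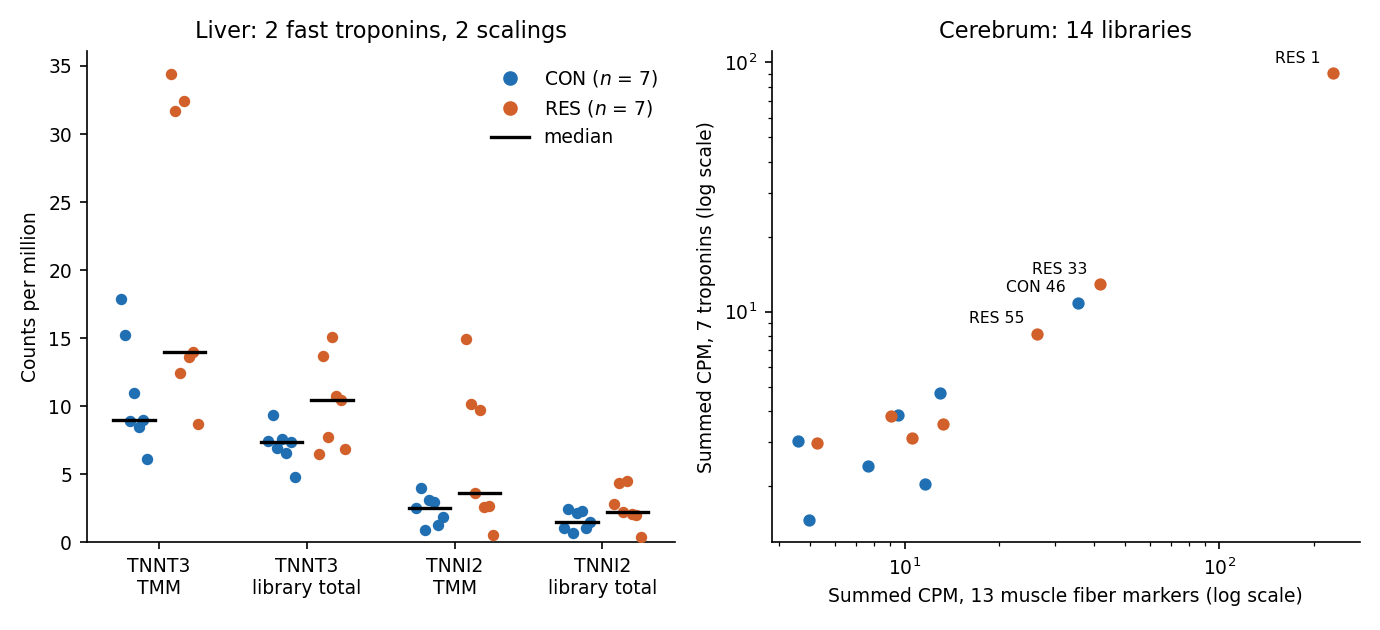
Left, CPM of *TNNT3* and *TNNI2* in the liver with TMM factors and with library totals alone, with a point for each fetus and a line for the median of each diet (*n* = 7 each), where *TNNT3* reaches 34.4 with the former and 15.1 with the latter. Right, the sum of the 7 troponins against the sum of 13 muscle fiber markers in the 14 cerebrum libraries (both CPM, log axes), where RES fetus 1 stands apart at 90.6 and 229.

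The muscle fiber markers were described in the liver as well. The marker sum was 4.98 to 40.8 CPM in liver libraries against 1,375 to 11,232 in muscle. Its median in the liver was 8.49 CPM in CON and 15.8 in RES. Of the 13 markers *MYH3*, *MYL4*, *MYLPF* and *KLHL41* were at 0 in none of the 14 liver libraries. *MYH3* ranged from 1.78 to 21.4 CPM there and *MYL4* from 1.10 to 27.4. *MYH3* was highest in RES fetuses 33 (21.4) and 6 (20.8), where *TNNT3* was high as well, and was at 11.2 in RES fetus 1. *MYOD1*, a regulator of muscle cells with 9.09 to 71.0 CPM in muscle, was at 0 counts in 14 of 14 liver libraries, *CKM* in 12 and *MYOG* in 11. *TNNT3* was 0.363 to 2.18 of the marker sum in the liver (median 0.904), and 0.0442 to 0.0692 in muscle (median 0.0548). The smooth muscle list had medians of 137 CPM in CON and 229 in RES livers. It summed to 335, 239 and 229 CPM in RES fetuses 1, 6 and 33 and to 307 in RES fetus 55, and to 128 to 179 in CON. The part of this list and of the muscle fiber markers in the troponin values of the liver was not tested. The slow *TNNI1* and the cardiac *TNNT2* are neighbors on chromosome 16 in the RefSeq annotation of ARS-UCD2.0, with *LAD1* between them. In the same annotation *TNNI2* and *TNNT3* are neighbors on chromosome 29, with *PRR33* and *LSP1* between them. *LSP1*, a protein of leukocytes, had 16.8 to 46.8 CPM in CON and 17.4 to 112 in RES livers, highest in RES fetuses 1 (112), 6 (74.5) and 33 (55.5). With library totals alone RES fetuses 6 and 33 were still the highest (32.2 and 25.9), while RES fetus 1 was at 21.3, below RES fetuses 52 (25.3) and 55 (22.4) and CON fetus 54 (24.1). The genes on the other side of *TNNT3* also had their highest TMM-scaled level in RES fetus 1. *MRPL23*, of the mitochondrial ribosome, was at 205 CPM there and 30.0 to 133 in the other 13 livers, and *IGF2*, a fetal growth factor, at 18,249 and 4,785 to 14,936. With library totals alone RES fetus 1 was the lowest of the 14 livers for *IGF2* (3,454) and had 38.9 CPM of *MRPL23*, whose highest value was then 67.3 in RES fetus 25. Whether counts of these neighbors and the troponins are related was not tested.

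In the cerebrum *TNNC1*, *TNNT1* and *TNNT3* passed the filter, all at low levels except in 1 library. *TNNT1* had a lowest, median and highest level of 0.484, 1.02 and 1.29 CPM in CON, and of 0.405, 1.49 and 15.1 in RES. *TNNT3* had 0.486, 1.11 and 2.54 CPM in CON, and 1.09, 1.76 and 15.1 in RES. The median of *TNNC1* was 0.239 CPM in CON and 0.673 in RES. The highest value of each was that of RES fetus 1, which had 249 counts of *TNNC1*, 120 of *TNNT1* and 120 of *TNNT3*. Over all 14 cerebra the medians of these 3 genes were 3, 7 and 8.5 counts. The 4 other troponins were also present in RES fetus 1, with 29 counts of *TNNI1*, 109 of *TNNC2*, 46 of *TNNI2* and 48 of *TNNT2*. The troponins summed to 90.6 CPM in this cerebrum and to 1.46 to 12.9 in the other 13.

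With library totals alone *TNNC1* was at 32.9, 9.19 and 3.08 CPM in the cerebra of RES fetuses 1, 33 and 55. It was at 7.91 in CON fetus 46 and under 1 in the others. It thus passed the filter mainly through RES, where it was higher, and its estimate is not independent evidence. The estimates of RES against CON in the cerebrum were 2.45 ± 1.17 for *TNNC1* (SE), 1.69 ± 0.69 for *TNNT1* and 1.61 ± 0.61 for *TNNT3*. Their adjusted *p* in edgeR's test was 0.999, and 0% of the 15,151 genes passed (0 genes, with 386 at an unadjusted *p* under 0.05 and 0 called by DESeq2). Without RES fetus 1 they were 0.78, 0.18 and 0.51, and without CON fetus 46 *TNNC1* was at 3.95.

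The cerebrum of RES fetus 1 also held markers of other tissues. Its 13 muscle fiber markers summed to 229 CPM with all 13 at 3 counts or more, *MYH3* the most abundant at 72.0, against 4.601 to 41.6 in the other 13 cerebra. The troponins were 0.395 of that sum there, 0.208 to 0.326 in muscle libraries and 0.175 to 0.658 in the other 13 cerebra. The red cell list summed to 272 CPM there and to 5.55 to 91.4 in the other 13, and the smooth muscle list to 176 and to 14.97 to 29.7. Connective tissue markers summed to 63.0 CPM there and to 0.239 to 3.98 in the other 13, and cartilage markers to 101 and to 9.04 to 36.8. The hepatocyte list summed to 5,796 CPM, of which *TTR*, transthyretin, a gene of the choroid plexus as well as of the liver, was 5,624. *TTR* was at 1,100, 907 and 895 CPM in the cerebra of RES fetuses 25 and 52 and CON fetus 46. The neuron sum was 2,666 CPM, and 4,781 to 13,157 in the other 13. The part of these markers in the cerebrum values was not tested.

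Whether the diet difference itself changed with the tissue was tested for all 7 troponins over the 42 libraries. None passed, with *p* from 0.0472 (*TNNC2*) to 0.334 and adjusted *p* of at least 0.829 in edgeR's test. Only 2 of the 7 had passed the filter within the liver and 3 within the cerebrum, and the others had few counts there to compare. *TNNC2* had 109 counts in the cerebrum of RES fetus 1, while the next RES cerebrum had 4 and CON cerebra at most 2. Among the 15,972 genes 0% passed (0 genes, with 897 at an unadjusted *p* under 0.05). The diet estimates of muscle, liver and cerebrum were thus not shown to differ.

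Finally, differential co-expression (DC) asked whether the correlation of a troponin with another gene in muscle differed between CON and RES. Of 83,671 pairs with a troponin 67 passed an adjusted *p* of 0.05 (0.0801%), against 0.0314% of all 71,478,946 pairs. The number of DC partners was 8 for *TNNC1*, 5 for *TNNI1* and 7 for *TNNT1*, 7 for *TNNC2*, 10 for *TNNI2* and 14 for *TNNT3*, and 16 for *TNNT2*. None of the 67 pairs joined 2 troponins. The 67 pairs came from 27 different partners, since the troponins are so closely correlated that their calls are not independent. The correlation was lower in RES in 52 pairs and higher in RES in 15. This split moved with single fetuses. Without RES fetus 25, 66 pairs passed, of which 30 were among the 67, and the correlation was higher in RES in 35. Without CON fetus 23 it was higher in RES in 0 of 26 pairs.

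In the main setting 3 partners were shared by all 7 troponins. With sex differences removed, only 3 of the 67 pairs still passed. The normal approximation behind these calls also passed too many unrelated pairs in simulated data. With *CD2AP*, an adaptor protein of the actin cytoskeleton, *r* was 0.568 to 0.727 in CON and -0.998 to -0.989 in RES. With *IGSF10*, an immunoglobulin superfamily member, it was 0.852 to 0.955 in CON and -0.964 to -0.926 in RES. With *ITGB1BP2*, the muscle protein melusin, it was -0.34 to -0.13 in CON and 0.993 to 0.997 in RES. *PLEKHG1* and *ZBTB33* were each shared by 6 troponins. With *ZBTB33*, a zinc finger transcription factor, *r* was 0.844 to 0.936 in CON and -0.950 to -0.919 in RES. *ZNF131*, another zinc finger factor, had 0.500 to 0.616 in CON and -0.980 to -0.950 in RES, and none of its pairs passed over all pairs.

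*IGSF10* had 45.4 to 82.3 CPM in CON, with its lowest value in fetus 73 and its highest in fetus 2, and 36.4 to 96.5 in RES, lowest in fetus 1 and highest in fetus 25. *ZBTB33* had 23.2 to 31.9 CPM in CON and 22.8 to 35.2 in RES, with the same 4 fetuses at the ends. *ITGB1BP2* had 8.89 to 10.7 CPM in CON and 5.65 to 17.2 in RES, lowest in fetus 25 and highest in fetus 6. The ends of these ranges in RES were among the 4 fetuses at the ends of the troponin levels (1, 6, 25 and 70).

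**Figure D5:**
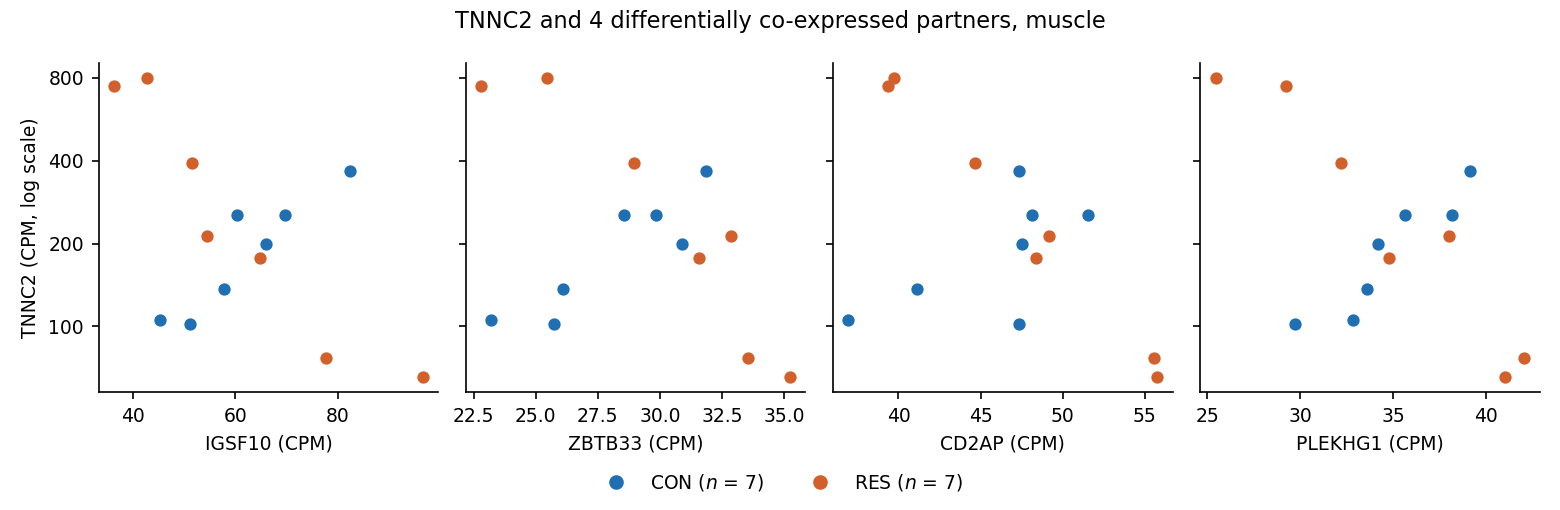
*TNNC2*, the fast calcium binding subunit (CPM, log axis), against *IGSF10*, *ZBTB33*, *CD2AP* and *PLEKHG1* (CPM) in hind limb muscle, with a point for each fetus (*n* = 7 per diet). In RES the partner is lower where *TNNC2* is higher, with *IGSF10* between 36.4 and 96.5, and in CON the relation runs the other way.

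An exact permutation test over every split of the 14 fetuses into groups of 7, with values centered within the diets, was run for the 42 pairs of the 7 troponins with 6 partners taken from the study or from earlier results of these data. It gave *p* from 0.000583, the smallest it allows, to 0.00758 (two-sided). These partners were chosen on the same fetuses. The number of DC calls moved with sex and with single libraries. With sex differences removed from the values 6 pairs passed (0.00717%), 3 of them among the 67, near the share of all pairs (0.00591%). Without CON fetus 73, 16 passed (0.0192%, and 0.00955% of all pairs), of which 12 were among the 67. Without CON fetus 2, 208 passed (0.249%, and 0.0933% of all pairs). Leaving out CON fetus 23 gave 26 pairs (0.0312%), near the share of all pairs (0.0239%). Leaving out CON fetus 46, 54 or 68 gave 31, 42 and 36 pairs (0.0371%, 0.0504% and 0.0432%), where 0.0253%, 0.0282% and 0.0282% of all pairs passed. Leaving out RES fetus 70 gave 39 (0.0469%, and 0.0208% of all pairs).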

How the data were processed

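RNA-Seq libraries (stranded, 50-bp paired-end) from 3 tissues were analysed. The authors mapped the reads to ARS-UCD 1.2 with STAR 2.7.3a and deposited its counts per Ensembl gene (release 100), without normalization; which strand column was kept is not given in the sources used here. Reads from overlapping genes may therefore be shared. FastQC 0.11.8 was used for quality control. Every column was matched to a tissue, diet and animal by the labels, and symbols came from the study's tables.

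A gene was removed where 80% or more of the libraries had under 1 CPM. Diets were compared within a tissue with edgeR 4.0.16 (R 4.3.3) by its quasi-likelihood test with TMM factors and a term for sex, and tissues in a joint model with sex and diet. Benjamini-Hochberg adjustment ran over all genes. The log2 CPM had a prior count of 1, and the slow to fast ratio a pseudocount of 1. Permutation tests used 100,000 resamples. Co-expression used variance stabilized values of DESeq2 1.42.0 without the 20% of genes of lowest dispersion, and Fisher-transformed correlations over all pairs. With 7 fetuses per diet this normal approximation called too many unrelated pairs in simulated data. The depth of 4,145,093 to 12,741,299 counts limits genes near the counting floor of 3 counts, and counting error is only part of the spread.

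The members, the gene and marker lists and the partners were chosen with earlier results of these data known. All troponins are named, with the 3 genes of each list with the greatest diet estimate as the pool for examples, and the 10 genes most like the troponins. Alternatives were DESeq2's Wald test and size factors, no sex covariate, male fetuses only, other filters on low counts and other transformations. An animal block, each fetus left out, and library totals alone were used too, the last chosen after seeing the data. The tissues of an animal are paired by its number in the labels. Deviations from the group means of the same animal correlated with medians of 0.03 (cerebrum and liver), 0.06 (cerebrum and muscle) and 0.12 (liver and muscle). The diets share no animal. Steps were tested on simulated data.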

Additional observations from a re-analysis of the deposited data

Results flagged for a closer look

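In 4 of 42 combinations of gene, tissue and diet, a single library lay far from the other 6 of its group. The 42 include *TNNT1* and *TNNT2* in CON liver and *TNNC2* and *TNNI2* in CON cerebrum. These had no library with 3 counts or more and were not tested. Chance gives about 1 in 20 for independent groups, while these groups share libraries. Of the 4 combinations, 3 were in the cerebrum of RES fetus 1. *TNNT1* was at 15.1 CPM there (120 counts), and the next RES value was 1.63. *TNNC2* was at 13.7 CPM (109 counts), and the next was 0.643. *TNNI2* was at 5.78 CPM (46 counts), and the next was 0.543. The fourth was *TNNI1* in the liver of RES fetus 70, at 0 CPM and 0 counts, where the next value was 0.636 CPM, from 3 counts, so that the difference was not detectable at this depth.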

How the results depend on the processing

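Of 651 alternatives for single genes, the 249 on diet all had the same sign and none passed the threshold. The 134 on muscle against cerebrum and the 134 on muscle against liver kept sign and call. Between liver and cerebrum 125 of 134 did, 6 gained the call (*TNNI1* with the animal block and without fetus 1, *TNNC2* without fetus 2, without fetus 6 and with library totals alone, and *TNNT2* with library totals alone) and 3 had the other sign, namely *TNNC2* (0.82) and *TNNT2* (0.43) without fetus 1 and *TNNI1* (-0.42) with library totals alone. Without 1 fetus at a time *TNNC2* ranged from -2.01 to 0.82 and *TNNT2* from -1.28 to 0.43. That scaling was chosen after seeing the data, and moved the median of all genes by 1.02 for muscle against liver and by -1.03 for liver against cerebrum. Over all genes DESeq2 called 13 in muscle and 86 in the liver. A stricter filter left 1 troponin, *TNNT3*, to be tested between tissues, and it was called in all 3 comparisons. With the animal as a block (paired tissues) 5 troponins were called between liver and cerebrum, with *TNNI1* at 1.18, and no other call of a troponin changed. The diets share no animal, so pairing applies only between tissues. The median correlation among troponins was 0.979 without the 2 farthest fetuses, 0.963 within CON and 0.994 within RES. The DC pairs of troponins numbered 6 with sex differences removed (0.00591% of all pairs passed), 51 with log2 CPM (0.0267%) and 16 to 208 with single fetuses left out (0.00955% without fetus 73 and 0.0933% without fetus 2). The causes were not tested. Depth limits the 5 troponins in the liver and the 5 in the cerebrum with a median of 3 counts or fewer.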
